A study of Mus musculus with 71 samples.

Results

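The regions described here were 832 places with a peak away from transcription starts in the H3K27me3 list of H1-TKO mouse embryonic stem cells (mESCs). The WT list held no peak there. The regions were chosen by the 2 peak lists themselves. A region was taken when it was listed in H1-TKO on chromosomes 1 to 19, X or Y, had its centre more than 10 kb from every annotated transcription start, and was overlapped by no WT peak by even 1 bp. The 832 regions were 13.6% of the 6107 H1-TKO peaks on these chromosomes, out of 6262 peaks in the whole H1-TKO list and 6957 in the WT list. Because the lists chose the regions, their absence from WT is not a finding, and the numbers below describe them without a test between the lists.

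The cells were R1 mESCs, a male mouse stem cell line, grown in medium with serum and LIF. WT cells carried no edit. H1-TKO cells, labelled H1KO in the series, carried CRISPR/Cas9 knockouts of 3 linker histone genes (H1c, H1d and H1e), made with one guide against a sequence that the 3 share, and the other H1 genes were left in place. Edited lines were grown from picked colonies of 1 cell. Each peak list came from replicate 1 of that genotype. The series has a second H3K27me3 ChIP-seq replicate of each, not analysed here, so the spread between replicates was not measured, and a clone effect cannot be told apart from the genotype. RNA-seq had 2 libraries per genotype, and the ChOR-seq samples of the series were not analysed here.

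H3K27me3, trimethylation of lysine 27 of histone H3, is written by the Polycomb complex PRC2 and marks silent developmental genes in stem cells. Its strongest sites in mESCs lie at unmethylated CpG islands, most of which sit at transcription starts, and the mark spreads outwards from there at lower levels. Linker histone H1 binds the nucleosome where DNA enters and leaves and helps to fold chromatin. The regions here are the part of the list that does not sit at starts.

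Stretches of 5 regions are shown so that the base composition discussed below can be seen. The first 3 belong to the regions with the highest peak scores, the fourth to the region of median score, and the last to the region with the most CpG dinucleotides. They are the plus strand of the NCBIM37 (mm9) genome, 5′ to 3′, around the centre of each peak, and capitals mark CpG. The nearest starts are those of Pcnx (chr12:83102576-83102875), Plod2 (chr9:92827632-92827931), Oas1b (chr5:121273334-121273633), Gm9889 (chr3:115463188-115463487) and Neurl1a (chr19:47327738-47327973).
Pcnx member: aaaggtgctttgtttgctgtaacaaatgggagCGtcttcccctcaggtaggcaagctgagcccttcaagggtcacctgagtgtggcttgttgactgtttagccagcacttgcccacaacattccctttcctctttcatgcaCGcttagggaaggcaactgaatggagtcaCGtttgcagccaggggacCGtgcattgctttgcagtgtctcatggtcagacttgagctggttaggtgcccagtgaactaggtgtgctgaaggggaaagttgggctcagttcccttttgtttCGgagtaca
Plod2 member: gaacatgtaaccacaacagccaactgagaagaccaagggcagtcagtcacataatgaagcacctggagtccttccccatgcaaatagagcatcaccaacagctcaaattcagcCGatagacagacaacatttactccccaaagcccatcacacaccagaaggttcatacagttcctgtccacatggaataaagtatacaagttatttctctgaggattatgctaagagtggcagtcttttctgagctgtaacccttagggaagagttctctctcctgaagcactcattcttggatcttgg
Oas1b member: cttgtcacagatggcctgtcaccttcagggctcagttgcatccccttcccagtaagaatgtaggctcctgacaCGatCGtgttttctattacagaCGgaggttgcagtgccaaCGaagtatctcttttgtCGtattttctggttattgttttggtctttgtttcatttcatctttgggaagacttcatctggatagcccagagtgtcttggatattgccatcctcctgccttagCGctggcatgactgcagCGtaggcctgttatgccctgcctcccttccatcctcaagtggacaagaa
Gm9889 member: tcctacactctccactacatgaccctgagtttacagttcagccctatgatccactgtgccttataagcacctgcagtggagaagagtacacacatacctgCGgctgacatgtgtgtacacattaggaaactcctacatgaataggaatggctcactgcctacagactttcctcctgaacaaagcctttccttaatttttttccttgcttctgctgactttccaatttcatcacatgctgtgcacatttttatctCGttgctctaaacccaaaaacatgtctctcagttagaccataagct
Neurl1a member: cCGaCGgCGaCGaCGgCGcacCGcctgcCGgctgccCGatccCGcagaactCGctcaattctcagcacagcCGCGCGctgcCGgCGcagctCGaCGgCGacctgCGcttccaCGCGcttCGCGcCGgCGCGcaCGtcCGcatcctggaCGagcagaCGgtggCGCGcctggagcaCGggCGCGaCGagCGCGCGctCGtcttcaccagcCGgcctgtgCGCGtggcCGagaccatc
The Plod2 stretch held 1 CpG in 300 bases and the Pcnx stretch 5, while the Neurl1a stretch held 45 in 236 bases. The Plod2 region was the second highest of all 832 by score and the Neurl1a region, inside a coding exon, was close to the lowest at 50.5. These 5 were picked for extremes of score or CpG, except the Gm9889 region, which had the median score. Over all 832 regions, from the lowest of 5 score classes to the highest, the CpG-rich share defined below was 1.22%, 2.87%, 3.55%, 6.33% and 9.09%.

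Most of the regions were weak and narrow peaks. The MACS score grows as the p-value of a peak shrinks, being the negative log10 of that p-value multiplied by 10, and a list starts at 50. The median score over the 832 regions was 57.2 (95% interval 56.31 to 58.02) and the highest was 218. A score under 60 was found for 507 regions (60.9%, exact binomial interval 57.5 to 64.3) and a score of 100 or more for 44 (5.29%, 3.87 to 7.03). The 585 distal H1-TKO peaks that did overlap a WT peak had a median score of 90.95 (87.73 to 96.12), and 43.4% of them (39.4 to 47.5) reached 100. The 952 distal peaks listed only in WT had a median of 57.11 (56.38 to 57.91), within the interval of the H1-TKO-only regions. Intervals of this kind cover counting error only. Peaks listed in 1 genotype, in either direction, thus lay near the score at which a peak enters a list.

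Width gave the same picture. The median region was 234.5 bp wide (218 to 250), against 227 bp (215 to 242) for distal WT-only peaks and 581 bp (538 to 650) for distal peaks in both lists. Only 33 regions (3.97%, 2.75 to 5.53) reached 1000 bp. The 832 regions covered 0.302 Mb, which was 6.2% of the 4.87 Mb under all H1-TKO peaks on these chromosomes. Score and width rose together with a rank correlation of 0.5 over the 832 regions, which come from 1 library and are not replicates.

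**Figure D1:**
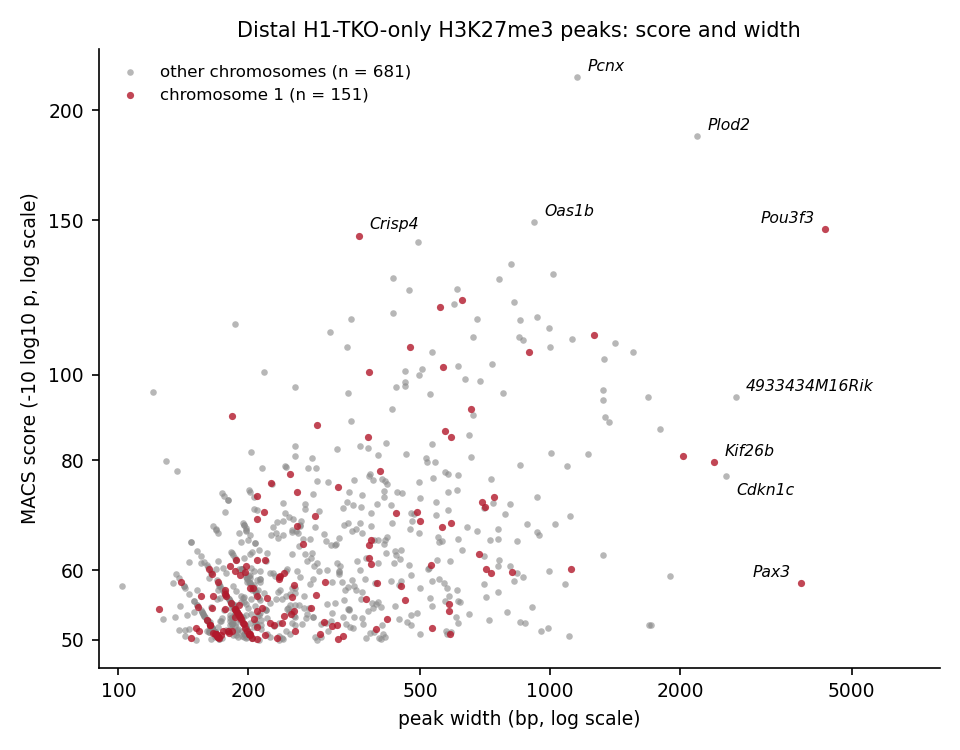
Width (bp) against MACS score for the 832 regions, both on log axes, with 1 point per region and the 151 on chromosome 1 in red; labels name the nearest gene of the 5 highest and 5 widest regions. Most points lie below a score of 60, and the widest region, beside Pou3f3, is 4334 bp wide with a score of 146.5.

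The highest score, 218, belonged to a 1154 bp region 142 kb from the start of Pcnx, which encodes a large membrane protein. A WT peak with a score of 68.36 ended 950 bp away. The second, with a score of 187 and 2187 bp wide, lay in a gene-poor stretch 338 kb from Plod2, a lysyl hydroxylase that helps to crosslink collagen, and the nearest WT peak was 390709 bp away. The third scored 149.1 and lay in an annotated UTR 10.8 kb from the start of the antiviral gene Oas1b, with a WT peak 1188 bp off. The Crisp4 region, 59.4 kb from a gene for a secreted sperm protein, scored 144 over only 360 bp and lay 258 bp from a weak WT peak with a score of 54.23. The Shroom3 region, in a coding exon of an actin-binding protein that shapes the neural tube, scored 133.8 and lay 32 bp from a WT peak with a score of 78.15. Also in the first 10, a region near a 5S_rRNA gene scored 141.7, a region in an intron near Gm16112 scored 130.2, one 238 kb from the transporter gene Slc35b3 scored 129, and one 39 kb from the transcription cofactor gene Lbh scored 128.6. The highest scores included regions next to a WT peak and regions over 100 kb from any.

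The widest region belonged to the first 10 by score as well. It covered chr1:42740623-42744956, 4334 bp, 11.2 kb from the start of Pou3f3, a POU-domain transcription factor of neural development, with a score of 146.5. The next widest, 3818 bp, lay 21.9 kb from Pax3, a paired-box factor of neural crest and muscle, but scored only 58. Regions of 2693 bp near 4933434M16Rik on chromosome 11, 2556 bp near Cdkn1c, an imprinted inhibitor of cyclin-dependent kinases, and 2398 bp in an intron near Kif26b, a kinesin family gene, scored 94.4, 76.7 and 79.6. Of these 5, the Pax3 region had the lowest score.

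By symbol prefix, 14 of the 832 nearest starts (1.68%, 0.923 to 2.81) belonged to families of developmental transcription factors, against 2.0% (1.21 to 3.1) of distal WT-only peaks, 2.22% (1.19 to 3.77) of distal peaks in both lists and 0.66% of points spaced every 10 kb through the distal genome. The share was thus above that of genome points and within the intervals of the other peaks. The prefixes do not cover every developmental regulator, and Noto, below, is one they miss. The 14 regions lay by 10 genes. Six3, a forebrain and eye homeobox gene, had 4 regions at 18, 23.5, 128 and 158 kb with scores of 76.9, 109.8, 58.6 and 69.7, and Six2, a kidney progenitor factor, had 1 at 113 kb with a score of 110.5. The Six2 region lay 120 bp from a WT peak with a score of 85.69, and for each of the 4 Six3 regions that same peak was the nearest, at 154844 bp or more. Tbx5, a heart and forelimb factor, had an intronic region with a score of 115.9 and another with a score of 57. Foxo6 had 1 with a score of 67.7, and Pou3f3, Pax3, Foxo1, Foxp1, Nkx2-1 and Sox21 had 1 each. The Wnt ligand genes Wnt5a and Wnt7b had 1 each, with scores of 55.3 and 50.1.

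Gene families of repeated clusters were also rare. Vomeronasal receptor genes or pseudogenes were nearest to 5 regions (0.601%, 0.195 to 1.4) and 0.598% of genome points, and an olfactory receptor gene to 1 region. Small RNA genes were nearest to 90 regions (10.8%, 8.79 to 13.1) and 17.9% of genome points. A protein-coding gene was nearest to 544 regions (65.4%, 62.0 to 68.6), 66.6% of distal WT-only peaks and 55.8% of genome points.

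In base composition the regions lay between the genome and the peaks found in both lists. The median GC content of 500 bp at the centre was 47.4% (46.8 to 48.0), against 40.8% at genome points, 47.6% (47.2 to 48.2) for distal WT-only peaks and 51.6% (50.6 to 52.4) for distal peaks in both lists. The ratio of observed to expected CpG had a median of 0.185 (0.1747 to 0.1953), against 0.147 at genome points, 0.239 (0.225 to 0.25) for distal WT-only peaks and 0.33 (0.296 to 0.3754) for peaks in both lists. CpG-rich windows, with over 50% GC and a ratio over 0.6, made up 36 regions (4.33%, 3.05 to 5.94), 6.51% (5.03 to 8.27) of distal WT-only peaks, 22.2% (18.9 to 25.8) of distal peaks in both lists and 0.23% of genome points. The 1482 H1-TKO-only peaks within 10 kb of a start had 19.2% (17.2 to 21.3). The intervals of the CpG ratio for the H1-TKO-only and WT-only distal peaks did not meet, although their GC intervals did. These intervals hold no spread between libraries, so they do not test a difference between the genotypes.

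Among the 36 CpG-rich regions, the highest scores were those of Shroom3 at 133.8, of a 1557 bp region in a coding exon near Tbkbp1 at 106.1 and of a 734 bp region near Tank, a signalling adaptor gene, at 102.8. Their GC contents were 68.8%, 69.8% and 70.6%. The median score of the CpG-rich regions was 64.36 and that of the other 796 was 56.97. Short sequence runs were counted in the same 500 bp windows. GCGCGC, which reads the same on both strands, occurred in 18 regions (2.16%, 1.29 to 3.4), 12.3% of distal peaks in both lists and 0.556% of genome points. A run of 5 CA dinucleotides on either strand occurred in 38 regions (4.57%, 3.25 to 6.22) and 8.52% of genome points, and a run of 5 GA dinucleotides on either strand in 26 (3.12%, 2.05 to 4.55) and 4.18%. The regions thus held more of the CpG run and less of the CA repeat than genome points did, and these letters are not binding sites.

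**Figure D2:**
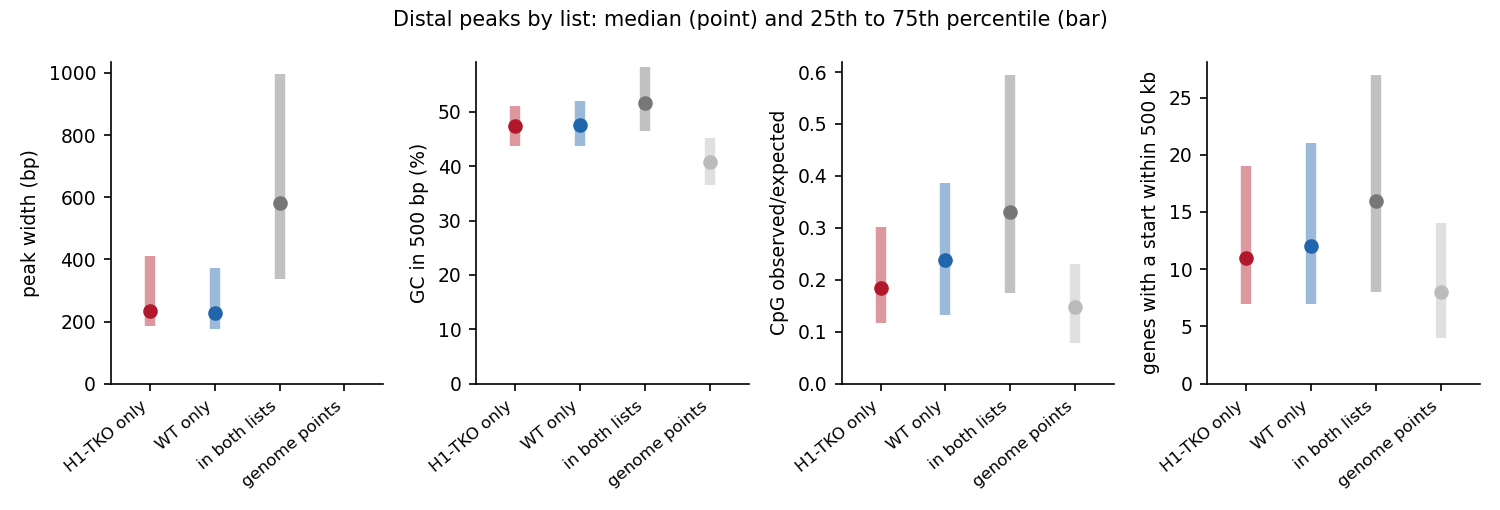
Width (bp), GC content (%), CpG observed/expected ratio and number of genes with a start within 500 kb for distal peaks only in H1-TKO (n = 832), only in WT (n = 952) and in both lists (n = 585), and for distal genome points every 10 kb, which have no width; points are medians and bars run from the 25th to the 75th percentile. For GC content, CpG ratio and gene starts the medians of the H1-TKO-only and WT-only peaks lie between those of the genome points and of the peaks in both lists, and for the CpG ratio they are 0.185 and 0.239.

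Genes were denser around the regions than around genome points and sparser than around distal peaks in both lists. The median number of genes with a start within 500 kb was 11 (10 to 12), against 12 (12 to 13) for distal WT-only peaks, 16 (14 to 17) for distal peaks in both lists and 8 for genome points. No gene started within 100 kb of 180 regions (21.6%, 18.9 to 24.6) and of 33.9% of genome points. Within 500 kb, 5 regions had no start at all, and the farthest of them, on chromosome 1, lay 1056 kb from Cdc73. The most crowded was a region near Sfmbt2 on chromosome 2 with 133 starts in that window, 10 of them protein-coding. The median distance to the nearest start was 34.78 kb (32.12 to 37.44), where the rule set the lower limit, and 51.63 kb for genome points held to the same limit. By place, 588 regions (70.7%, 67.5 to 73.7) were intergenic, 205 (24.6%) intronic, 29 in a coding exon (3.49%, 2.35 to 4.97), 8 in a UTR and 2 in a non-coding exon. For genome points the intergenic share was 65.8%, the intronic share 32.8% and the coding exon share 0.642%.

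Regions next to a WT peak and regions far from any differed in base composition. A WT peak lay within 1 kb of 103 regions (12.4%), between 1 and 10 kb of 61, between 10 and 100 kb of 277, and beyond 100 kb of 391 (47.0%). Median GC content was 52.2%, 49%, 47.4% and 46.6% in these classes, from the closest to the farthest. CpG-rich members numbered 16 (15.5%), 3 (4.92%), 11 (3.97%) and 6 (1.53%). Median width was 398, 500, 229 and 203 bp, so the class between 1 and 10 kb was the widest. Median gene starts within 500 kb were 18, 10, 13 and 10, with no order by distance beyond the closest class. The 103 closest regions had a median score of 62.4, below the 72.5 of the WT peaks beside them. The regions were a mixture in which 12.4% adjoined WT peaks and 47.0% lay over 100 kb from every one.

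**Figure D3:**
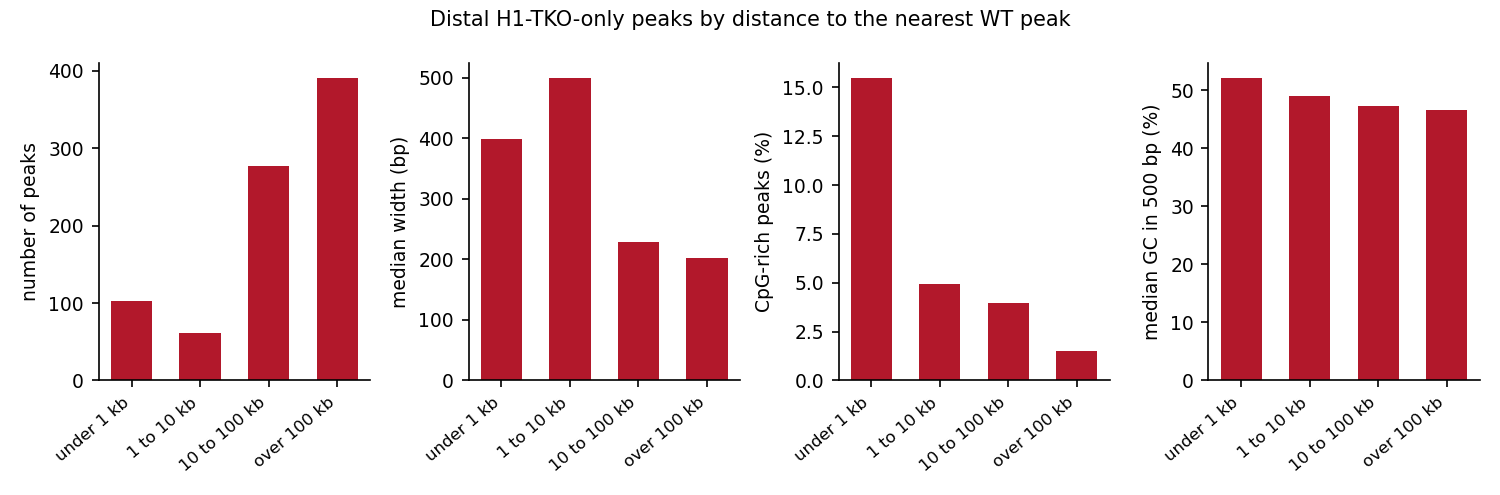
The 832 regions split by distance (kb) from the nearest WT peak edge: number of regions, median width (bp), share that is CpG-rich (%) and median GC content of 500 bp (%), as bars from 0. The share that is CpG-rich is 15.5% for the closest regions and 1.53% for the farthest, and the widest class is that between 1 and 10 kb.

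Over all regions, another H1-TKO peak of any kind lay within 50 kb of 340 (40.9%, 37.5 to 44.3), against 69.7% (65.8 to 73.4) of distal peaks in both lists, and another WT peak lay within 50 kb of 44.7% (41.6 to 48.0) of distal WT-only peaks. Chaining regions with centres at most 50 kb apart left 677 alone and 155 (18.6%) in 70 clusters, of which 58 held 2 regions and 10 held 3. The largest cluster held 5 regions in 15.7 kb at chr2:116373824-116389483, 19.7 to 34.8 kb from the predicted gene Gm13991. Their scores ran from 59.92 to 97.19, no WT peak lay in the span, and the nearest was 471950 bp from the first of them. The next held 4 regions in 54.9 kb at chr4:146794428-146849375, in introns near the vomeronasal receptor pseudogene Vmn2r-ps19 and near Gm16889, with scores up to 111.8. That span also held 3 WT peaks. The tightest cluster of 3, in 2 kb, lay 13.7 to 15.3 kb from Noto, a notochord homeobox gene, with scores of 67.4, 63.3 and 53.1. A WT peak with a score of 62.99 lay 416 bp before the first of them, and another, with a score of 58.82, lay between the second and the third, 140 and 212 bp from them. The Gm13991 cluster was thus far from any WT peak, and the Noto group lay among WT peaks.

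Chromosome 1 held more of these regions than any other. It had 151 of 832 (18.1%) on 8.14% of the distal sequence, or 0.999 per Mb against 0.399 per Mb over all other chromosomes together. Of distal WT-only peaks it held 94 (9.87%), 0.622 per Mb against 0.503 elsewhere, and of distal peaks in both lists 81, 0.536 per Mb against 0.296 elsewhere, so these too were denser there. For each distal WT-only peak there were 1.61 H1-TKO-only regions on chromosome 1 and 0.794 elsewhere. Close to starts the ratio was 1.27 on chromosome 1, from 124 and 98 peaks, and 0.675 elsewhere. In bins of 20 Mb the regions of chromosome 1 ran from 5 to 23, and H1-TKO-only regions outnumbered WT-only peaks in 8 of 10 bins, so they were not gathered in one place. Those regions had a median score of 56.02 and a median width of 225 bp, against 57.53 and 237 bp on the other chromosomes. Their median GC content was 45.6% against 47.8%, 1.32% of them were CpG-rich against 4.99%, and they had 8 gene starts within 500 kb against 12. The highest scores there belonged to the Pou3f3 and Crisp4 regions.

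Chromosomes 8 and 14 stood out in other ways. Chromosome 8 held 73 regions (0.769 per Mb), 131 distal WT-only peaks (1.38 per Mb) and 67 distal peaks in both lists (0.705 per Mb), so distal peaks of every kind were dense there, and the ratio of H1-TKO-only to WT-only peaks was 0.557. Chromosome 14 held 49 regions against 18 distal WT-only peaks, a ratio of 2.72, while close to starts its ratio was 0.883. Chromosome X held 6 regions (0.0521 per Mb) and 8 distal WT-only peaks, and none lay on chromosome Y. With 1 list per genotype, a difference between libraries cannot be told apart from a difference between genotypes.

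**Figure D4:**
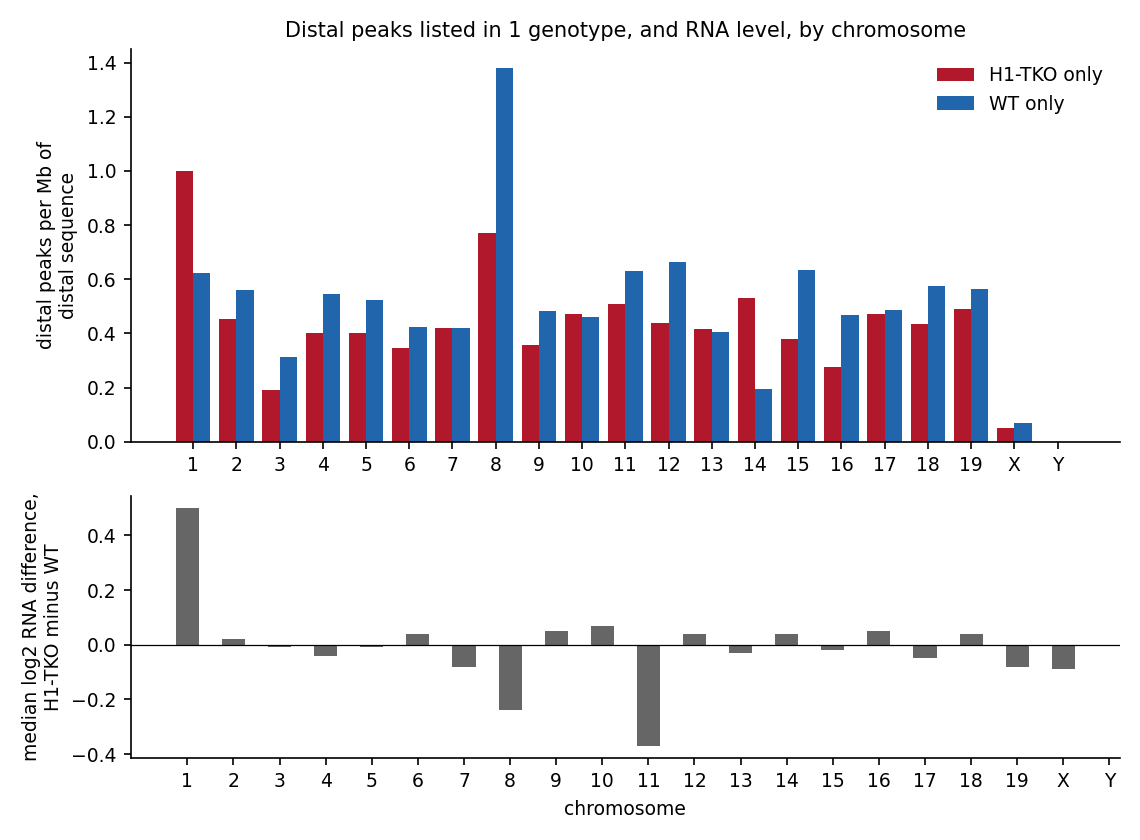
Upper panel, distal peaks only in H1-TKO and only in WT per Mb of distal sequence on each chromosome; lower panel, median log2 difference in RNA, H1-TKO minus WT, over the accessions tested on it (chromosome Y was not tested). Chromosome 1 has 0.999 H1-TKO-only regions per Mb and a median RNA difference of 0.5.

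RNA-seq was read for genes with a start within 100 kb of a region. The sample labels and the deposited file names give the genotypes in opposite order. Each library equalled 1 genotype column of the study's own table to within a relative tolerance of 0.001 in every accession compared, 1942 to 1963 a library, and those columns set the direction here. By the sample labels every RNA direction below would be reversed. Transcripts of the targeted genes were low in all libraries: H1f3 (H1d) had normalized read counts of 3.9 and 41.4 in WT and 1.1 and 0.0 in H1-TKO, H1f4 (H1e) had 5.4 and 19.6 against 0.0 and 2.1, and H1f2 (H1c) had 11.6 and 56.7 against 18.7 and 7.4. The groups overlapped for H1f2. Of the H1 genes that were not targeted, H1f5 had 6.2 and 44.7 against 0.0 and 2.1, and H1f0, the only one with high counts, had 571 and 463.6 against 1943.6 and 2118. The targeted transcripts do not settle the direction. Of the mESC markers, Pou5f1, Sox2, Klf4, Zfp42, Dppa5a and Tdgf1 had at least 673.4 in every library. The list summed to 23630 and 33060 in WT and 40140 and 40850 in H1-TKO. Sox2, Klf4 and Dppa5a were higher in both H1-TKO libraries. Tdgf1 was lower in both, at 3503 and 3141 in WT against 2228 and 2474. The groups overlapped for Pou5f1 and Zfp42. Esrrb, under 2 accessions, was near 0, and Nanog, under 4, was listed at 0 in all 4 libraries. A gene listed under several accessions can thus be at 0 here whatever its level, and such a 0 is not read as absence. Fibroblast markers summed to 301 to 373.2 in WT and 510.1 to 576.1 in H1-TKO, with 3 or 4 of 8 listed at 0 in each library. The higher sum came from Thy1, at 109.4 and 125.4 against 449.5 and 510.8, while Col1a1, at 195.5 and 148.3 against 34.2 and 53.7, Col1a2 and Twist2 were lower in both H1-TKO libraries. In bulk libraries fewer cells of a type and less RNA per cell cannot be told apart.

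Of 1805 annotated genes with a start within 100 kb of a region, 1235 had an accession in the tables and 650 passed the filter of a mean normalized count of 10. RNA was higher in H1-TKO for 84 of the 650 (12.9%) and lower for 68 (10.5%), by limma at an adjusted p under 0.05. Over all 10559 genes tested, 10.1% were higher and 11.0% lower. The shares near the regions were thus near those of all genes. The median log2 difference was 0.01 near the regions and -0.02 over all placed genes. Leaving out either H1-TKO library left 13 genes higher (2.00%, beside 1.86% to 1.92% of all genes) and 22 to 24 lower (3.38% to 3.69%, beside 3.56% to 3.67%), and leaving out either WT library gave 151 to 185 higher (23.2% to 28.5%, beside 22.0% to 24.8%) and 157 to 162 lower (24.2% to 24.9%, beside 23.6% to 25.7%). The lone library was then assumed to vary like the other genotype, and the counts near regions moved with those of all genes.

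Chromosome 1 gave 27 of the 84 higher genes. Near its regions 27 of 98 tested genes were higher and 3 lower, with a median log2 difference of 0.47. Genes of chromosome 1 that were not within 100 kb of a region gave 159 higher and 23 lower of 505, with a median of 0.51. Without chromosome 1, 57 of 552 genes near regions were higher (10.3%) and 65 lower (11.8%), with a median of -0.08, beside 8.89% and 11.4% of all genes outside chromosome 1. Near regions of chromosome 8, 1 of 66 genes was higher (1.52%) and 11 lower (16.7%), with a median of -0.31, beside 4.42% and 18.9% and a median of -0.24 over the whole chromosome. Chromosome 14 as a whole had 0.04. The lowest chromosome median was -0.37, on chromosome 11, with -0.74 near its 34 regions, while its ratio of H1-TKO-only to WT-only distal peaks was 0.81. The part of these chromosome-wide RNA differences in the peak counts was not tested. Before any test, single-accession protein-coding genes near the regions had a mean below 10 in WT for 281 of 830 (33.9%, 30.6 to 37.2), against 32.3% (29.0 to 35.7) near distal peaks in both lists and 41.3% of all 15293 such genes. Genes near the regions were therefore not mostly silent.

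The genes near a region with the largest changes came from many chromosomes. The largest fall was that of Zic2, a zinc-finger factor of neural development. Its normalized read counts were 189.3 and 288 in WT and 13.2 and 13.7 in H1-TKO. The difference was -4.02 on the log2 scale of normalized count plus 1 (SE 0.37, limma adjusted p = 0.00199). Zic5, its neighbour on chromosome 14 and a gene of the same family, had 140.4 and 158.2 in WT and 16.5 and 24.2 in H1-TKO, a log2 difference of -2.83 (SE 0.37, limma adjusted p = 0.00501). The groups did not overlap for either gene, and both were picked for the size of their change. Both genes shared a pair of regions, one of 278 bp with a score of 57.8, 40.8 kb from the Zic2 start, and one of 649 bp with a score of 53.5, 68.5 kb away, each at least 15.2 kb from a WT peak. Gm13251, a predicted gene 13.3 kb from its region on chromosome 4, had 188.5 and 349 in WT and 37.5 and 54.8 in H1-TKO. Atl3, a GTPase gene that shapes the endoplasmic reticulum, had 27.9 and 30.5 in WT against 3.3 and 7.4, with a limma adjusted p of 0.0448, and it is listed under 2 accessions between which its reads can be split. DESeq2 gave it an adjusted p of 0.0645. Atl3 had a mean below 10 in H1-TKO and passed the filter only through WT, where it was high.

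In the other direction, Atp12a, a proton-potassium pump gene, had 28.7 and 3.3 in WT and 124.5 and 66.4 in H1-TKO, a log2 difference of 3.03 (SE 0.88, limma adjusted p = 0.0491). edgeR on the recovered reads gave it an adjusted p of 0.0642, so its call depended on the tool. Prss44, a serine protease gene, had 7 and 2.2 against 46.3 and 33.7, a difference of 3.01 (SE 0.69, limma adjusted p = 0.0251). Pla2g2c, a secreted phospholipase gene, had 3.9 and 1.1 against 24.2 and 21.1. Cyp46a1, which hydroxylates cholesterol in neurons, had 5.4 and 3.3 against 54 and 21.1. Cdh22, a cadherin gene, had 3.9 and 4.4 against 32 and 25.3, a difference of 2.52 (SE 0.63, limma adjusted p = 0.0322), and its region lay 20.7 kb from its start with a score of 51.1. Prss44, Pla2g2c, Cyp46a1 and Cdh22 had means below 10 in WT and passed the filter only through H1-TKO, where they were high, so a difference was built into their selection. In all 5 genes both H1-TKO libraries were above both WT libraries, which their choice as the largest passing rises favoured. The WT levels were at most 28.7. The scores of the 5 regions ran from 50.8 to 80.8.

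**Figure D5:**
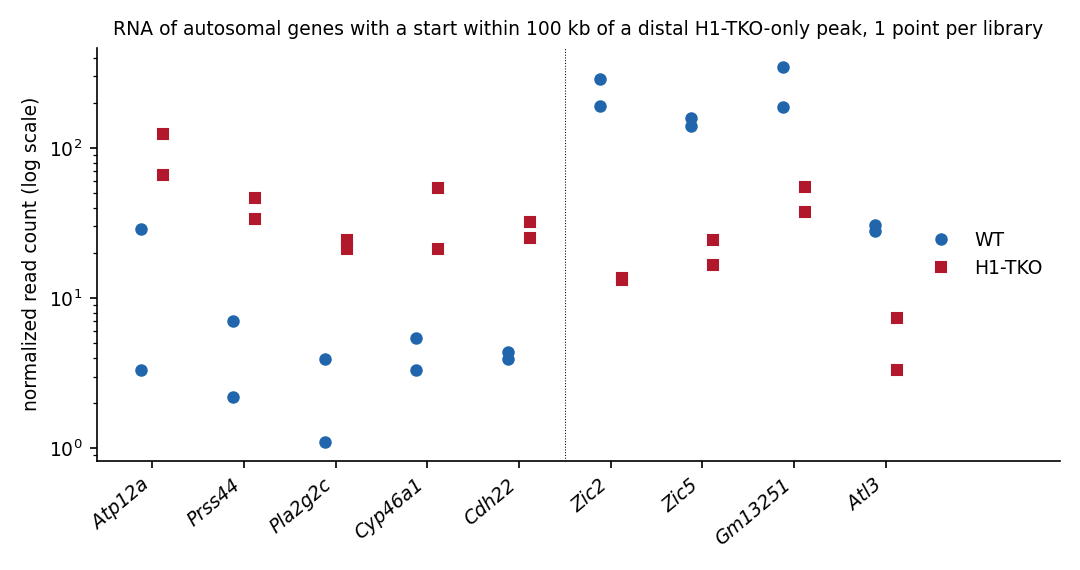
Normalized read counts (log axis) in the 2 WT (blue circles) and 2 H1-TKO (red squares) libraries for the 5 genes most raised (left of the dotted line) and 4 of the most lowered, all on autosomes, among genes that passed the test within 100 kb of a region. The WT and H1-TKO points do not overlap in any of the 9, which their choice as the largest passing changes favoured. Prss44, Pla2g2c, Cyp46a1, Cdh22 and Atl3 passed the filter only through the genotype where they were high. Zic2 falls from 189.3 and 288 to 13.2 and 13.7.

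Beside the highest-scoring and widest regions, levels could be read for the nearest genes listed under 1 accession. Plod2, Shroom3, Slc35b3 and Cdkn1c have 2 or 3 accessions and give none. Pou3f3 had 6.2 and 4.4 in WT and 11 and 19 in H1-TKO, and the difference did not pass the test (log2 difference 1.32, SE 0.72, limma adjusted p = 0.221). Lbh had 37.2 and 48 against 30.9 and 43.2 (limma adjusted p = 0.745), and Kif26b had 17.1 and 6.5 against 12.1 and 10.5 (limma adjusted p = 0.951). Pcnx was well expressed, with 666.4 and 534.5 against 711.8 and 795.2. Oas1b, under 1 accession, was listed at 0 in all 4 libraries, as was Pax3 under 2, which gives no level for it. Of the developmental factors beside regions, Foxo6, whose region lay 100 bp from a WT peak with a score of 141.16, rose from 24.8 and 27.3 to 91.5 and 79 (log2 difference 1.67, SE 0.36, limma adjusted p = 0.0214). Sox21 had 27.2 and 57.8 in WT and 9.9 and 17.9 in H1-TKO, with a difference of -1.5 that did not pass the test (limma adjusted p = 0.108). Six3, Six2, Tbx5 and Nkx2-1 had at most 4.7 in any library. Of the differences tested in this paragraph, only that of Foxo6 passed. Over all nearest genes tested, 31 of 235 were higher in H1-TKO and 22 lower (13.2% and 9.36%), beside 10.1% and 11.0% of all genes.

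At the limits of the rule, the region with the start nearest to it lay 10067 bp from Palm2 on chromosome 4, and the nearest peak left out lay 9999 bp from 2610028E06Rik. The smallest gap to a WT peak among the regions was 3 bp, for a region 11.7 kb from Sox21 on chromosome 14, and the smallest WT overlap among the peaks left out was 8 bp. The lowest score among the regions was 50.03.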

How the data were processed

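H3K27me3 ChIP-seq was deposited as 1 peak list per genotype. Per the paper's methods, the authors mapped reads with bowtie2 (version 2.2.5) to mm9 and to dm6 for the fly spike-in, removed duplicates and kept uniquely mapped reads with samtools (version 1.2.1), and called peaks with MACS (version 1.4.2) at a p-value limit of 1e-05. The deposited score is the negative log10 of that p-value multiplied by 10, which is not scaled between lists. The lists hold no read depth, and the study's reporting summary states read numbers of similar size for both libraries. RNA-seq values are a signal: the authors counted reads per RefSeq accession with featureCounts after Subread and used DESeq2, and the values are those counts divided by 1 factor per library, as read from the values themselves. All values above 0 were whole multiples of 1 read (tolerance 0.02), and the recovered totals were 6951619 to 10538507 reads. PCR duplicates were not marked by molecular identifiers.

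Starts came from GENCODE M1 on NCBIM37, the mm9 assembly. Accessions were named from RefSeq (GRCm38.p6, names only): 33650 of 34010 had a symbol and 31331 a GENCODE M1 gene. Medians have order-statistic intervals and shares exact Clopper-Pearson 95% intervals. RNA was tested with limma 3.58.1 (R 4.3.3, eBayes with trend) on log2(normalized count + 1) for the 11113 accessions with a mean of at least 10, with Benjamini-Hochberg adjustment over all of them, and a gene was counted when any of its accessions passed. The recovered reads were also tested with edgeR 4.0.16 (quasi-likelihood, TMM) and DESeq2 1.42.0. In data simulated for this comparison, run on 11102 accessions with 200 changed, limma recovered 31% of 2-fold and 93% of 4-fold changes. The simulation gave all accessions 1 common dispersion. In the real data 2282 of 11113 accessions were called, so these shares do not measure the power there. The paper calls the samples of its RNA comparison biologically independent. The labels do not say that replicates were separate cultures, and p-values measure the spread between these libraries only. Regions named are the 10 with the highest score, the 5 widest, the 3 largest clusters and those at the limits. Genes named are the nearest to these, the 5 largest changes in each direction within 100 kb among genes that passed, 1 of which is not reported here, and counts by family. Individual developmental factors, CpG-rich examples and the regions with the most or fewest genes around them were named after their values were seen. The regions and lists were chosen with earlier results of these data known. H1-TKO peaks on unplaced contigs and the mitochondrial genome, 155 in all, were left out. Region and RNA alternatives are given after the report.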

Additional observations from a re-analysis of the deposited data

Results flagged for a closer look

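Of the 155 H1-TKO peaks on unplaced contigs or the mitochondrial genome, which no comparison used, 34 (21.9%, exact binomial interval 15.7 to 29.3) were overlapped by no WT peak, beside 2314 of 6107 (37.9%, 36.7 to 39.1) on the assembled chromosomes. Their median score was 64.74. No gene distance could be given for them.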

How the results depend on the processing

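With 1 peak list per genotype, nothing here separates genotype from library, and the score limit sets much of the membership: requiring a score of at least 60 or 100 left 325 or 44 regions, with median GC of 48.2% or 48.7%, another H1-TKO peak within 50 kb for 52.31% or 56.82%, 15.38% or 20.45% on chromosome 1, and median widths of 381 or 670.5 bp. That neighbour share was 35.68% with a start distance of 20 kb, 36.63% or 34.68% with no WT peak within 1 or 5 kb, 33.6% after merging peaks within 1 kb, and 19.11% or 67.19% for neighbours within 10 or 200 kb. Median gene starts were 2 within 100 kb, 23 within 1000 kb and 7 for protein-coding genes. GC was 48.33% in 300 bp and 48.08% over the whole peak.

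For genes near regions, a filter at a mean of 1 gave 49 higher and 45 lower (5.29% and 4.85%, beside 4.60% and 4.95% of all genes). Without a filter limma gave 2 higher and 0 lower of 1235 (beside 0.277% and 0.00455% of all genes), with 135 and 134 at an unadjusted p under 0.05. edgeR, with its own filter, gave 85 higher and 66 lower of 660 (12.9% and 10.0%, beside 10.2% and 10.5%), and DESeq2 gave 85 and 68 of 1067 (7.97% and 6.37%, beside 6.08% and 7.38%). The gene of the nearest start alone gave 31 and 22 of 235 (13.2% and 9.36%), and a window of 500 kb gave 374 and 303 of 2996 (12.5% and 10.1%), beside 10.1% and 11.0% of all genes. Leaving out 1 library gave 13 to 185 higher and 22 to 162 lower, each low value without an H1-TKO library, beside 1.86% to 24.8% and 3.56% to 25.7% of all genes. The cause was not tested where a construction with fewer genes or samples does not give it. The replicate block gave 105 higher and 90 lower (16.2% and 13.8%, beside 14.1% and 16.3% of all genes). The deviations of same-numbered libraries from their genotype means had a correlation of 0.01. With 2 libraries per genotype this value is the same for both numbers by construction. It does not settle whether the numbers pair the libraries. Of 95 alternatives, 55 stayed within the spread or within 1.5 times the count.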
